A study of Mus musculus with 16 samples.

Results

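The genes described here are the B cell and major histocompatibility complex (MHC) class II transcripts that can be read in bulk mouse skeletal muscle. They are 10 of the 55471 genes in the count table, namely Cd79a, Cd79b, Ms4a1, Ighm, Igkc, Jchain, Cd74, H2-Aa, H2-Ab1 and H2-Eb1. Cd79a was chosen by its low p-value in the comparison of the genotype labels (unadjusted p = 0.00334 in edgeR, 10th of 14331 genes), and the other 9 genes were taken as its partners in the same cell type. The label comparison of these genes is therefore a description with no test. That p came from a fit that also held housing cage and body weight, so the cage and weight values of Cd79a share its residual spread and are not independent of the choice. The slopes and correlations with Cd79a use the same values, so the label difference that chose it enters them too. Of the 10 genes, 8 passed the filter on low counts, and Cd79b and Ms4a1 did not.

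Skeletal muscle RNA from 16 male mice was sequenced, each library from 1 mouse. The animals came from the Npr1tm1Gar line on a C57BL/6J background, with 10 libraries labelled heterozygous (Npr1+/-) and 6 labelled wildtype (Npr1+/+, littermates). All mice received a high-fat diet (60% of calories as lipid) for 12 weeks, so no library comes from a mouse on standard chow, and the mice are described as 12 weeks old without saying whether this was their age at the start of the diet. Where present, the allele is carried in every cell of the animal, the muscle dissected is not stated, and the mice were housed in 4 cages (675, 676, 677 and 678) at body weights of 36.5 to 48.1 g (median 44.3 g) under the heterozygous label and 40.5 to 54 g (median 48 g) under the wildtype label.

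B lymphocytes recognise antigen through a surface immunoglobulin, whose heavy chain of the first isotype is encoded by Ighm and whose most used light chain in mice is encoded by Igkc. The immunoglobulin signals through a dimer of the proteins of Cd79a and Cd79b, and Ms4a1 encodes CD20, a surface protein of mature B cells. Plasma cells secrete immunoglobulin, and Jchain encodes the chain that joins secreted IgM and IgA into polymers. MHC class II molecules present peptides to helper T cells. H2-Aa and H2-Ab1 encode the alpha and beta chains of the I-A molecule, H2-Eb1 encodes the beta chain of I-E, and Cd74 encodes the invariant chain that escorts class II molecules through the cell. B cells, dendritic cells and macrophages all carry class II, so these 4 genes do not mark B cells alone.

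Library totals ran from 15273472 to 59682677 counts. Npr1 stood at 9.83 to 22.2 CPM (the counts-per-million scale, with TMM scaling) in the 10 libraries labelled heterozygous and at 10.4 to 13.4 CPM in the 6 labelled wildtype (log2 difference 0.09, standard error 0.20, edgeR adjusted p = 1.0), so the targeted mRNA did not follow the labels and all directions below are between libraries as labelled. The libraries also differed in how level depended on gene length. The slope of log2 level, relative to the mean of all libraries, on log2 gene length ran from -0.19 to 0.06 in 13 libraries and from 0.18 to 0.32 in the other 3, which were heterozygous replicates 5, 6 and 7. The labelled tissue was borne out by its markers, with Acta1, the actin of skeletal muscle fibres, at 16949 CPM or more in every library. A bulk level cannot tell fewer cells of a type from less RNA per cell.

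The class II genes share sequence elements in front of their start sites, and 3 such stretches are printed here to show what H2-Aa, H2-Eb1 and a partner gene have in common in sequence. Whether these letters bear on their levels was not tested. In all 3, the capitals nearest the start mark the Y box (TGATTGG), a site for the factor NF-Y. The capitals further upstream mark GCAACT, a part of the X box to which the RFX complex binds, in H2-Aa and H2-Eb1, and TGACGTCA, a cAMP response element, in H2-Aa. The 130 bases before the start are shown from 5′ to 3′ on the strand of the gene (RefSeq, GRCm38.p6), for H2-Aa at chr17:34287824-34287953 on the minus strand, for H2-Eb1 at chr17:34305737-34305866 on the plus strand and for H2-DMb1, which encodes a chain of the peptide-loading partner of class II, at chr17:34153061-34153190 on the plus strand.
H2-Aa: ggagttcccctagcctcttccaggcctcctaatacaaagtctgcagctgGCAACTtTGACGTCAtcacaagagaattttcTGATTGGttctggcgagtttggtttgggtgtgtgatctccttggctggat
H2-Eb1: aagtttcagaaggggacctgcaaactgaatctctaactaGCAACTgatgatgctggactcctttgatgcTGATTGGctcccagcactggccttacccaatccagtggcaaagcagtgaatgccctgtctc
H2-DMb1: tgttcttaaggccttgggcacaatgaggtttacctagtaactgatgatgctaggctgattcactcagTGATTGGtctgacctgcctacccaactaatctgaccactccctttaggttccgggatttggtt

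Searched on both strands over the 250 bases before the start, TGATTGG was found in front of 7 of the 8 class II genes that have a window in the table (H2-Aa, H2-Eb1, H2-Eb2, H2-DMb1, H2-DMb2, H2-Oa and H2-Ob), against 7.23% of 32851 windows. It began 45 to 102 bases before the start and lay on the strand of the gene in all 7. GCAACT was found in front of H2-Aa, H2-Eb1 and H2-Eb2 (9.01% of all windows), and TGACGTCA in front of H2-Aa alone among the 8 (1.55% of all windows). These matches describe letters and not occupied sites. Of the 10 genes, 4 had a window in the table.

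Compared per length, the levels of the 10 genes differed widely (CPM per kilobase of gene, mean ± SD over 16 libraries). Ighm was by far the most abundant, at 64.7 ± 31.2, and the class II genes followed with 24.6 ± 8.03 for Cd74, 9.84 ± 4.02 for H2-Aa, 9.09 ± 3.76 for H2-Ab1 and 9.06 ± 3.76 for H2-Eb1. Igkc stood at 2.48 ± 3.06. The lowest levels were 0.325 ± 0.224 for Cd79a, 0.215 ± 0.116 for Cd79b, 0.182 ± 0.0886 for Jchain and 0.050 ± 0.036 for Ms4a1. Ighm exceeded Cd74 in 16 of 16 libraries, Cd74 exceeded H2-Aa in 15, and Igkc exceeded Cd79a in 16. The neighbours H2-Aa and H2-Ab1 (higher in 9 of 16), H2-Ab1 and H2-Eb1 (7 of 16), Cd79a and Cd79b (9 of 16) and Cd79b and Jchain (8 of 16) did not differ beyond their spread. Together the 10 genes took 136 to 419 CPM of a library's total (without TMM scaling), and Ighm alone gave 32.8% to 59.1% of them.

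**Figure D1:**
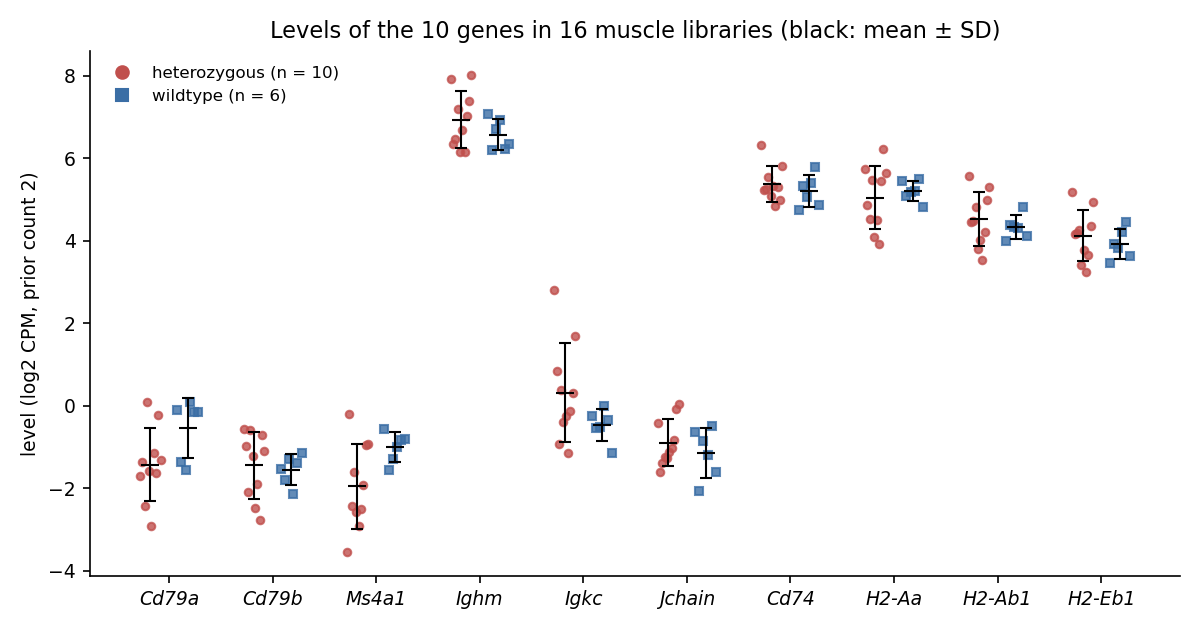
Level of each of the 10 genes (log2 CPM with a prior count of 2) in every library, with circles for the 10 libraries labelled heterozygous, squares for the 6 labelled wildtype and black bars for mean ± SD. Ighm, Cd74 and the H2 genes lie at about 3 or higher and the other genes mostly under 2, and the 2 labels overlap for every gene.

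The genes of the B cell receptor complex and CD20 were detected, but from very few reads. Cd79a (chromosome 7, 24897381 to 24902197, plus strand of GRCm38) had 174 counts over all 16 libraries, Cd79b (chromosome 11, 106311341 to 106314762, minus strand) had 115 and Ms4a1 (chromosome 19, 11249675 to 11266241, minus strand) had 110. Cd79a ran from 1 to 20 counts (median 5) in the libraries labelled heterozygous and from 6 to 26 (median 17) in those labelled wildtype, and the ranges overlapped. Scaled to depth, the lowest library was heterozygous replicate 6 at 0.0468 CPM (95% exact Poisson interval 0.00119 to 0.261) and the highest was wildtype replicate 4 at 0.974 CPM (0.533 to 1.63). The intervals did not overlap, but these 2 libraries were picked as the extremes. They also carry different labels, by which the gene was chosen, so this is no test. Ms4a1 had 0 counts in heterozygous replicate 1, which allows up to 0.270 CPM at the upper 95% limit, and 0.788 CPM (0.420 to 1.35) in heterozygous replicate 2. Cd79b ran from 0.0595 CPM (0.00151 to 0.332) to 0.585 CPM (0.253 to 1.153). All such intervals cover counting error only.

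In the comparison that chose it, Cd79a averaged 0.357 ± 0.291 CPM (SD, n = 10) in the libraries labelled heterozygous and 0.667 ± 0.309 CPM (SD, n = 6) in those labelled wildtype, a log2 difference of -1.18 (standard error 0.34, edgeR adjusted p = 1.0). No gene of the 14331 tested passed the threshold (0% called), 151 had an unadjusted p under 0.05, and DESeq2 called 6. The values of its partners in that comparison did not all take the same sign. Cd79b averaged 0.333 ± 0.201 against 0.265 ± 0.0831 CPM and Ms4a1 0.240 ± 0.246 against 0.425 ± 0.122 CPM, heterozygous first. The log2 difference, heterozygous minus wildtype, was 0.46 for Ighm, 1.03 for Igkc, 0.35 for Jchain, 0.03 for Cd74, 0.04 for H2-Aa, 0.20 for H2-Ab1 and 0.07 for H2-Eb1, so Cd79a was the one gene of the 8 tested with a value below 0. Leaving out 1 library moved these values, from 0.12 (without wildtype replicate 5) to 1.06 (without wildtype replicate 4) for Ighm, from 0.47 to 1.75 for Igkc without the same libraries, and from 0.16 (without heterozygous replicate 9) to 0.48 (without heterozygous replicate 4) for Jchain. It also took Cd74, H2-Aa and H2-Eb1 below 0, to -0.071, -0.15 and -0.019 at the lowest. The median of the 8 was 0.13, against -0.01 over all genes tested.

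By housing cage, Cd79a did not pass the adjusted threshold, and its values are given as a description. In cage 675 the 4 libraries stood at 0.0980 and 0.0468 CPM (labelled heterozygous) and at 0.302 and 0.251 CPM (labelled wildtype), the lowest mean of any cage. In cage 676 the libraries labelled heterozygous stood at 0.219, 0.238 and 0.315 CPM and the wildtype library at 0.813 CPM. In cage 677 the values were 0.247 CPM (heterozygous) and 0.849 and 0.814 CPM (wildtype), and in cage 678 they were 0.303, 0.971, 0.364 and 0.769 CPM (heterozygous) and 0.974 CPM (wildtype). Within each of the 4 cages the mean log2 level was lower under the heterozygous label, by -1.21, -1.40, -1.47 and -0.75 in that order (a description, since the label chose this gene). The F test over cages gave p = 0.000341 for Cd79a (19th of 14331 genes), which did not pass after adjustment (edgeR adjusted p = 0.251). Leaving out heterozygous replicate 3, 1 of the 2 low libraries of cage 675, brought that adjusted p to 0.0321, with 869 genes called against 4 in the main fit. Leaving out heterozygous replicate 6, the other one, brought it to 0.704, and DESeq2 gave 0.0160, with 78 genes called. With cage alone in the fit the adjusted p of Cd79a was 0.941, with the gene length slope of each library added 0.812, and without heterozygous replicates 5, 6 and 7 it was 0.849.

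**Figure D2:**
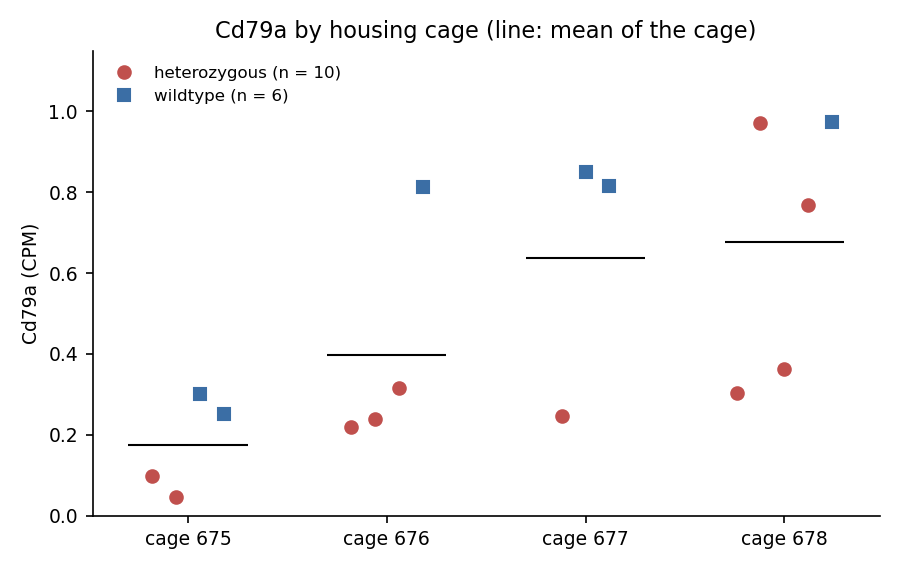
Cd79a level (CPM) in each library by housing cage, with circles for libraries labelled heterozygous, squares for those labelled wildtype and a line at the mean of the cage. Cage 675 has the lowest mean at 0.175 CPM and cage 678 the highest at 0.676 CPM.

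Among the 8 tested genes, cage gave an unadjusted p under 0.05 for Cd79a, Cd74 (p = 0.0108), H2-Aa (0.0275), H2-Eb1 (0.0363) and Igkc (0.0370) in edgeR's F test, and none passed after adjustment, against 4 of 14331 genes called (0.0279%) and 7.36% with an unadjusted p under 0.05. For Cd74, H2-Aa, H2-Eb1 and Igkc cage 676, which holds heterozygous replicates 1, 8 and 10 and wildtype replicate 5, had the highest mean. Cd74 averaged 57.9 ± 16.8 CPM in cage 676 against 38.1 ± 3.35 in cage 675, 30.1 ± 3.68 in cage 677 and 37.4 ± 7.43 in cage 678. H2-Eb1 averaged 25.3 ± 10.5 CPM there against 15.2 ± 2.01, 11.3 ± 0.944 and 17.1 ± 4.40 in the others in the same order, and Igkc 2.89 ± 2.88 against 0.601 ± 0.126, 0.597 ± 0.204 and 1.07 ± 0.487. That Igkc mean rests on heterozygous replicates 1 (6.87 CPM) and 10 (3.15 CPM), with the other libraries of the cage at 0.833 and 0.702 CPM. Of the genes fixed as other B cell markers, 6 of 27 were tested and none passed. Those with the smallest p were Cd37, a membrane protein of B cells (p = 0.0136), Ighd, the constant region of IgD (p = 0.0259), and Ebf1, a transcription factor of early B cells (p = 0.0377), each with an edgeR adjusted p of 0.656. Of 15 tested partners in the class II pathway, none passed, with Ctss, the protease that trims the invariant chain, first (p = 0.0182, edgeR adjusted p = 0.656).

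Body weight was available for every mouse, and its slope (log2 change per 10 g, with label and cage in the edgeR fit) was positive for 7 of the 8 tested genes. None passed after adjustment, nor did any gene of all (0% called, 17.1% with an unadjusted p under 0.05, and DESeq2 called 0). H2-Aa had the largest value at 1.02 (standard error 0.35, unadjusted p = 0.00972, edgeR adjusted p = 0.245). The others were 0.95 for Igkc, 0.83 for Cd79a, 0.69 for both Ighm and Jchain, 0.39 for H2-Ab1, 0.08 for H2-Eb1 and -0.08 for Cd74. Their median was 0.69 against -0.03 over all genes tested. Leaving out 1 library moved the slopes, from 0.092 to 0.74 for H2-Ab1 (without heterozygous replicates 7 and 3), from 0.51 to 1.63 for Igkc (without heterozygous replicate 7 and wildtype replicate 4), from 0.54 to 1.19 for Ighm (without wildtype replicates 5 and 4) and from 0.41 to 0.90 for Jchain (without heterozygous replicates 9 and 4). The signs depended on the fit. With body weight alone Cd79a was at -0.015 and Cd74 at 0.22, and with the gene length slope added H2-Ab1 was at -0.044 and H2-Eb1 at -0.29. Of the 14 tested macrophage genes, 12 had a positive slope (median 0.59), none of them called. The H2-Aa slope was 0.47 with the gene length slope of each library in the fit and 1.45 (edgeR adjusted p = 0.0185) without heterozygous replicate 3, a fit in which 3158 genes were called.

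Ighm dominated the immunoglobulin signal. It lies on chromosome 12 from 113418558 to 113422730 on the minus strand of GRCm38 and had 1337 to 4355 counts in every library, 41669 in all. By label it ran from 71.5 to 262 CPM (median 117) in the 10 heterozygous libraries and from 73.2 to 134 CPM (median 92.9) in the 6 wildtype ones, with heterozygous replicates 10 and 1 on top. Igkc (chromosome 6, 70726435 to 70726966, plus strand) had 402 counts in all. It ran from 0.364 to 6.87 CPM (median 0.993) under the heterozygous label and from 0.366 to 0.905 CPM (median 0.656) under the wildtype label, and again heterozygous replicates 1 (6.87 CPM) and 10 (3.15 CPM) led. Per kilobase Ighm exceeded Igkc by 9.98 times in heterozygous replicate 1, by 62.5 times in wildtype replicate 6, and by 38.4 times in the median library. The other light chains were also low, with 54 counts for Iglc2, 31 for Iglc3 and 17 for Iglc1 over all libraries (near-identical copies whose reads may be split or left out).

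Several other defining B cell markers were also sparse. Over the 16 libraries Cd22, an inhibitory receptor, had 46 counts, Blk, a kinase of the receptor pathway, had 33, Fcmr, the receptor for IgM, had 29, and Pax5, the factor that fixes B cell identity, had 25 and was at 0 in 8 libraries. Cd37 was better covered, with 342 counts and some in every library. Ighd, which is spliced from the same transcript as Ighm in mature B cells, had 161 counts against 41669 for Ighm. The summed level of the 27 other B cell markers was 309 to 669 CPM in the libraries labelled heterozygous and 394 to 576 CPM in those labelled wildtype, a sum in which broadly expressed genes outweigh the defining ones. Of the 16 T and NK cell markers, summed at 1.45 to 5.53 and 2.41 to 3.41 CPM by label, Cd3d had 1 count in all and Cd3g 22, while Cd3e had 645.

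The switched isotypes were uneven between mice. Ighg2c, the IgG2 isotype that C57BL/6 mice carry in place of IgG2a, was found in every library, from 10 to 57 counts. Ighg3 had 105 counts in heterozygous replicate 1 and 4 in the other 15 libraries together. Ighg2b had 27 counts in heterozygous replicate 2, 9 in heterozygous replicate 9, 5 in heterozygous replicate 8, 1 in wildtype replicate 2 and 0 elsewhere. Igha had 16 counts over 8 libraries, Ighg1 had 1 and Ighe had 0 in all 16. Jchain (chromosome 5, 88519809 to 88527891, minus strand) was spread more evenly, at 0.242 to 0.945 CPM (median 0.392) under the heterozygous label and 0.151 to 0.628 CPM (median 0.408) under the wildtype label. Mzb1, a chaperone of antibody-secreting cells, had 79 counts and Tnfrsf17, the receptor BCMA of plasma cells, had 15.

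Variable segments, the part of an antibody gene that differs between B cell clones, gave 1 to 60 counts per library over the 348 segments in the table. Heterozygous replicate 1 had the most, with 60 counts on 9 segments. Of these, 38 fell on Igkv10-96, a share of 63.3% (95% exact binomial interval 49.9% to 75.4%), and 12 fell on Ighv4-1, which had no count in any other library. The same library held the high Ighg3 and Igkc counts. Heterozygous replicate 2 came next with 30 counts on 10 segments, 10 of them on Ighv6-6 (33.3%, 17.3% to 52.8%) and 8 on Igkv3-2, and it was the library with 27 counts of Ighg2b. Heterozygous replicate 5, the most deeply sequenced, had 26 counts on 12 segments with at most 4 on any of them. In the other 13 libraries the segments had 1 to 20 counts, too few to tell a leading segment. All segments together gave 236 counts against 41669 for the Ighm constant region.

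**Figure D3:**
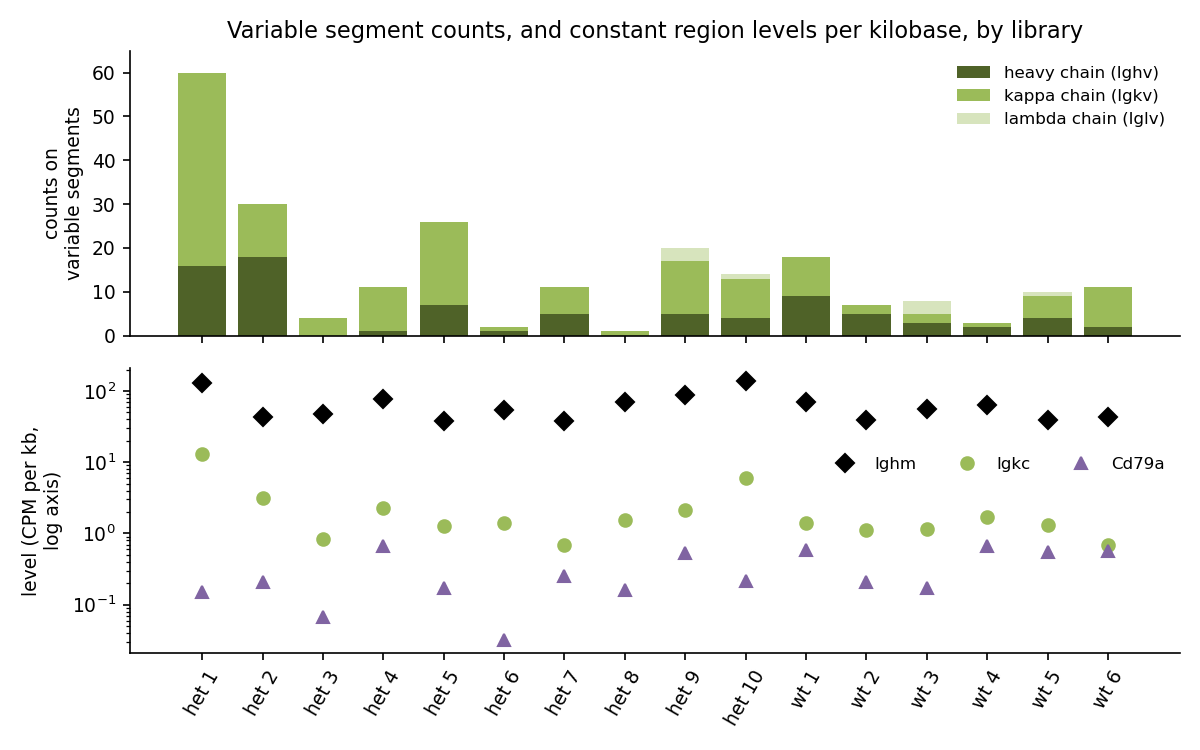
Upper panel, counts on heavy, kappa and lambda variable segments in each library (het, labelled heterozygous, and wt, labelled wildtype). Lower panel, level of Ighm, Igkc and Cd79a per kilobase (CPM per kb, log axis). Heterozygous replicate 1 has 60 segment counts and the highest Igkc level, and Ighm lies above Igkc in all 16 libraries.

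The class II genes were well covered, at 13004 counts for H2-Aa (chromosome 17, 34282744 to 34287823, minus strand), 8024 for H2-Ab1 (34257689 to 34269419, plus strand), 6012 for H2-Eb1 (34305867 to 34316674, plus strand) and 14639 for Cd74. Cd74 ran from 28.8 to 80.3 CPM (median 38.9) in the libraries labelled heterozygous and from 27.0 to 55.3 CPM (median 36.9) in those labelled wildtype. H2-Aa ran from 15.2 to 74.9 CPM (median 36.5) and from 28.4 to 44.9 CPM (median 36.7), H2-Ab1 from 11.4 to 47.7 (median 22.01) and from 15.8 to 28.2 (median 20.05), and H2-Eb1 from 9.42 to 36.5 (median 18.04) and from 10.9 to 21.8 (median 14.6), heterozygous first. The labels overlapped for all 4 genes, and the lowest library for the 3 H2 genes was heterozygous replicate 7. The spread among the libraries labelled heterozygous was the wider one, with a coefficient of variation of 51.3% against 16.6% for H2-Aa, 46.3% against 21.2% for H2-Ab1, 45.8% against 26.1% for H2-Eb1 and 34.9% against 27.5% for Cd74. This difference was not tested, and the 3 libraries apart in gene length slope, which hold the 3 lowest H2-Aa levels, all carry that label.

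H2-Eb1 kept close to H2-Ab1, at 0.844 to 1.23 times its level per kilobase, whereas H2-Aa ranged from 0.701 times H2-Ab1 in heterozygous replicate 3 to 1.88 times in wildtype replicate 1. The alpha chain of I-E, H2-Ea, had 0 counts in all 16 libraries. RefSeq lists it as a transcribed pseudogene, and C57BL/6 mice are known to lack I-E alpha. Ciita, the master switch of class II transcription, was low at 0.252 to 1.10 CPM. Of its partners in peptide loading, H2-DMa stood at 2.06 to 5.34 CPM and H2-DMb1 at 1.003 to 3.59 CPM, while H2-Oa and H2-Eb2 had 20 counts each over all libraries.

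To ask which genes moved with Cd79a from mouse to mouse, every tested gene was fitted on the log2 CPM of Cd79a alone across all 16 libraries. None of the 7 other tested members passed, against 10 of 14330 genes called (0.0698%), all of them lower where Cd79a was higher. The 3 genes with the smallest p were Tob2, an antiproliferative factor (slope -0.62), Klf4, a transcription factor (-0.69), and Per1, a circadian clock repressor (-0.78), each with edgeR adjusted p = 0.0330. The other 7, named after their values were seen, were Sik1, Arrdc3, Fosl2, Klf2, Lrrc8a, Mcf2l and S1pr1. No gene rose with Cd79a past the threshold, and the positive genes of smallest p were Lpar6 (slope 0.54, adjusted p = 0.0649), Gadd45b (0.45, 0.0718), Gm29521, Rassf9, Grrp1, Evi2a, C1qtnf2, Serpinb1a, Irf5 and Gm42690, none of them in the B cell lists. The count rested on single libraries, being 670 without heterozygous replicate 7 and 0 without heterozygous replicate 3, 5 or 6 or wildtype replicate 1, 2 or 6. It was 2 without heterozygous replicate 9 or wildtype replicate 4, 6 without heterozygous replicate 4, 22 without wildtype replicate 5, and 0 with label, cage and body weight in the fit.

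The log2 levels of the other members were also correlated with that of Cd79a. Pearson's r was 0.65 with Ms4a1 (two-sided permutation p = 0.00767, Spearman's rho 0.64, p = 0.00899, n = 16), 0.56 without the 2 libraries farthest from the median of Cd79a (heterozygous replicate 6 and wildtype replicate 4), and 0.05 for residuals after label, cage and body weight. It was 0.41 with Cd79b (permutation p = 0.117, rho 0.23, p = 0.392) and 0.42 without the same libraries. It was 0.44 with H2-Aa (permutation p = 0.0879), 0.08 with Ighm (p = 0.780), -0.06 with Igkc (p = 0.830), 0.15 with Jchain (p = 0.588), 0.10 with H2-Ab1 (p = 0.718), 0.03 with H2-Eb1 (p = 0.921) and -0.15 with Cd74 (p = 0.574). For residuals after label, cage and body weight r was 0.58 with H2-Aa, 0.48 with H2-Ab1, 0.31 with H2-Eb1 and 0.32 with Cd79b. These are from a family of 17 pairs, whose p-values are unadjusted. The p-values with Cd79a are not independent of its choice, since its label difference enters every correlation made without a label term. Ms4a1 was also lower under the heterozygous label (mean 0.240 against 0.425 CPM). Of the 6 tested genes among the other B cell markers none was called, 3 had a positive slope (median -0.02), and those of smallest p were Cd24a (slope 0.24) and Ebf1 (slope -0.23), each with edgeR adjusted p = 0.181.

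The corresponding fit was made on Cd74. Of the 7 other tested members 2 passed, H2-Eb1 (slope 1.10, standard error 0.17, edgeR adjusted p = 0.0304) and Igkc (slope 2.18, standard error 0.35, adjusted p = 0.0304), against 3 of 14330 genes called (0.0209%). The third gene called was Fat3, a large cadherin, which was lower where Cd74 was higher (slope -2.35, adjusted p = 0.0176). H2-Ab1 followed with a slope of 1.001 (adjusted p = 0.0749), while Ighm (0.80, adjusted p = 0.142), Jchain (0.46), H2-Aa (0.42, adjusted p = 0.526) and Cd79a (-0.29) did not pass. The median of the 7 was 0.80 against -0.01 over all genes tested. After H2-Eb1 and Igkc the positive genes of smallest p were Clec3b, Igfbp6, Hba-a1, Ppp1r15a, Me1, Zfp583, Tubb4b and H2-Ab1, and after Fat3 the negative ones were A430033K04Rik and Dgke.

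The association rested partly on heterozygous replicates 1 and 10, the libraries with the highest Cd74. Pearson's r between Cd74 and H2-Eb1 was 0.85 (two-sided permutation p = 5e-05, rho 0.77, p = 0.00079, n = 16) and 0.69 without these 2 libraries, and with H2-Ab1 it was 0.79 (permutation p = 0.00023, rho 0.66, p = 0.00646) and 0.56 without them. With Igkc it was 0.77 (permutation p = 0.00096, rho 0.55, p = 0.0307) and 0.35 without them, and with Ighm 0.52 (permutation p = 0.0369, rho 0.34, p = 0.189) and -0.05 without them, so the last relation rested on those libraries. With H2-Aa it was 0.40 (permutation p = 0.120, rho 0.46, p = 0.0766). Residuals after label, cage and body weight gave r of 0.76 for H2-Eb1, 0.68 for H2-Ab1 and 0.78 for Igkc. In the edgeR fit the call on H2-Eb1 was lost without any 1 of 9 libraries (heterozygous replicates 1, 4, 5, 7 and 10 and wildtype replicates 3, 4, 5 and 6), with adjusted p from 0.00379 to 0.354 and a slope from 1.03 to 1.21 over all 16 omissions, and the call on Igkc without any of the same 9 except wildtype replicate 5 (slope 1.63 to 2.48). With the gene length slope of each library in the fit, H2-Eb1 (0.94, adjusted p = 0.00405), Igkc (1.93, adjusted p = 0.00728) and H2-Ab1 (0.79, adjusted p = 0.00728) all passed, among 1918 genes called. Without heterozygous replicates 5, 6 and 7 no gene was called (adjusted p = 0.0534 for both H2-Eb1 and Igkc), nor with label, cage and body weight in the fit (slopes of 1.14 for H2-Eb1 and 2.49 for Igkc, adjusted p = 0.550 for both).

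**Figure D4:**
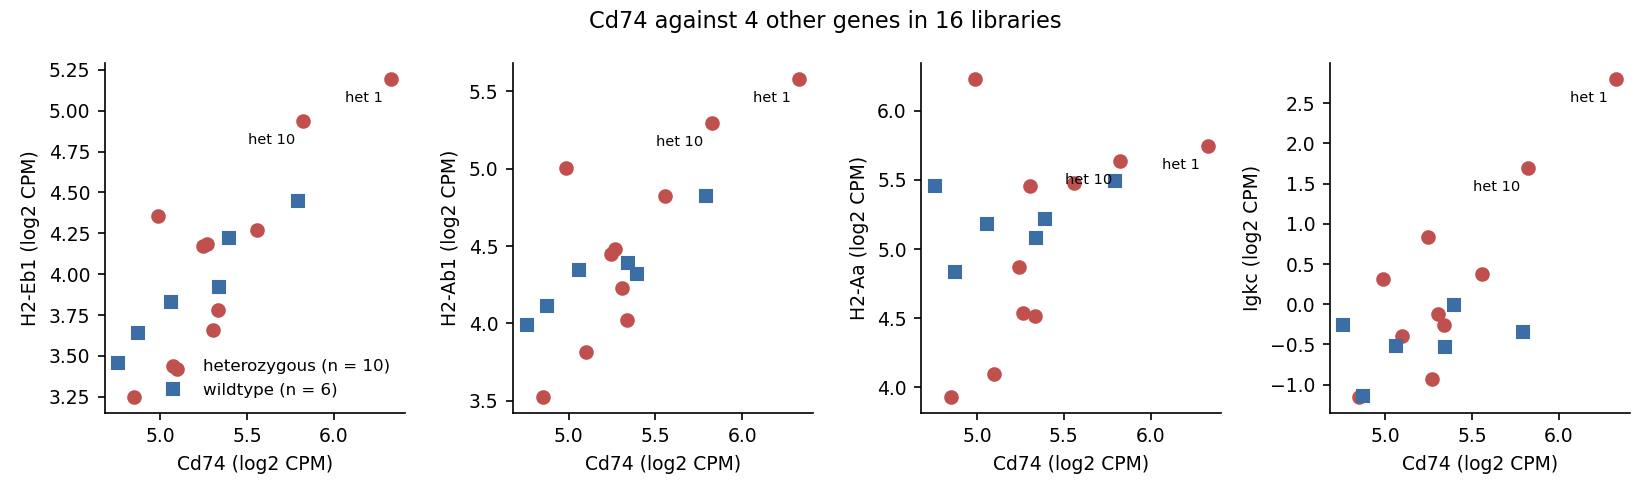
Cd74 (x axis) against H2-Eb1, H2-Ab1, H2-Aa and Igkc (y axes), all as log2 CPM, in 16 libraries with circles for the heterozygous and squares for the wildtype label. Heterozygous replicates 1 and 10 (het 1, het 10) lie at the upper right of the H2-Eb1, H2-Ab1 and Igkc panels, and H2-Aa follows Cd74 least, with r = 0.40.

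Among the lists described beside the members, the slope on Cd74 called no gene. The class II partners of smallest p were H2-DMb1 (0.87, edgeR adjusted p = 0.0985) and H2-DMa (0.65, adjusted p = 0.153), the chains of the loading factor, and Nfyc, a subunit of the Y box factor (-0.30, adjusted p = 0.229). Of the 16 tested genes of the interferon gamma response, 2 had a positive slope (median -0.25), with Gbp4, Gbp5 and Irgm1, all GTPases, at -0.84 (adjusted p = 0.0985), -0.92 and -0.30. Of the 14 tested macrophage genes 13 had a positive slope (median 0.51), led by Lyve1, and all 9 adipocyte genes did (median 0.58).

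The fit on H2-Aa called a much larger share of all genes than the fit on Cd74. This fit and the one on Ighm were added after the data were seen. Of 14330 genes, 7404 (51.7%) passed in the fit on H2-Aa, 3462 higher and 3942 lower, so that a call by itself says little about the members. The slopes were 0.72 for H2-Ab1 (edgeR adjusted p = 0.000195), 0.61 for H2-Eb1 (0.00357), 0.76 for Ighm (0.000827), 1.29 for Igkc (0.0119) and 0.66 for Jchain (0.0207), all called, and 0.77 for Cd79a (0.0749) and 0.33 for Cd74 (0.0666), which were not. The gene with the smallest p of all was Lyz2, the lysozyme of macrophages (slope 1.07, adjusted p = 2.2e-07), and C1qa (1.03) and C1qb (0.99), complement chains made by macrophages, were the 3rd and 6th among the positive genes. Of 14 tested macrophage genes 11 were called, 10 of them higher (median 0.79), against a median of -0.02 over all genes tested, and 5 of 15 class II partners were called higher and 2 lower, led by Rfxank, a subunit of the RFX complex (0.46, adjusted p = 0.000226). Of 6 other B cell markers Cd24a was higher and Ralgps2 lower. Genes of other cell types were called as well, namely 9 of 10 endothelial genes (7 lower, median -0.63), 9 of 12 muscle fibre genes (4 higher and 5 lower) and 3 of 7 dendritic cell genes (2 higher and 1 lower, median 0.016). Cd3e was called too (slope 0.83, adjusted p = 6.79e-05), the only 1 of 16 T and NK cell markers that was tested. Cd3d and Cd3g, of the same receptor complex, had 1 and 22 counts in all, against 645 for Cd3e. The part of these genes in the H2-Aa level was not tested.

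Macrophage transcripts and the gene length slope of the library were set against H2-Aa directly. H2-Aa correlated with the summed level of the 16 macrophage genes (r = 0.96, rho 0.94, n = 16) and, inversely, with the gene length slope (r = -0.92, rho -0.91), each with a two-sided permutation p of 1e-05, the smallest that 100000 resamples can give. Without the 2 libraries farthest from the median on the x axis r was 0.92 and -0.91, and for residuals after label, cage and body weight it was 0.91 and -0.90. The macrophage genes summed to 68.2 to 257 CPM in the libraries labelled heterozygous and to 110 to 210 CPM in those labelled wildtype, with none of the 16 at 0 throughout. Much of that sum came from Lyz2 (mean 52.7 CPM), C1qa (17.4), C1qb (15.9) and C1qc (14.4), whereas Csf1r, Cd68 and Adgre1 averaged 9.48, 2.75 and 2.50 CPM. The correlation with the sum thus reflects the most abundant genes of the list more than the rest. With the gene length slope in the fit 0 genes were called on H2-Aa, and none of the members kept its call (adjusted p = 0.973 for the 5 called before). The slopes were then 0.58 for H2-Ab1, 0.40 for H2-Eb1, 0.59 for Ighm, 1.08 for Igkc, 1.05 for Jchain and 0.44 for Cd74, and that of Cd79a turned to -0.21. Without heterozygous replicates 5, 6 and 7, 2590 genes were called, among them Ighm (1.02), Jchain (1.30) and H2-Ab1 (0.66) but not Igkc (1.72, adjusted p = 0.0932) or H2-Eb1 (0.51, adjusted p = 0.167). With label, cage and body weight in the fit 5234 genes were called, among them H2-Ab1 (adjusted p = 0.00778), Ighm (0.0268) and H2-Eb1 (0.0409), but not Igkc (slope 0.82, adjusted p = 0.265) or Jchain (slope 0.57, adjusted p = 0.294). Both measures moved with H2-Aa, and their parts in its level were not tested.

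**Figure D5:**
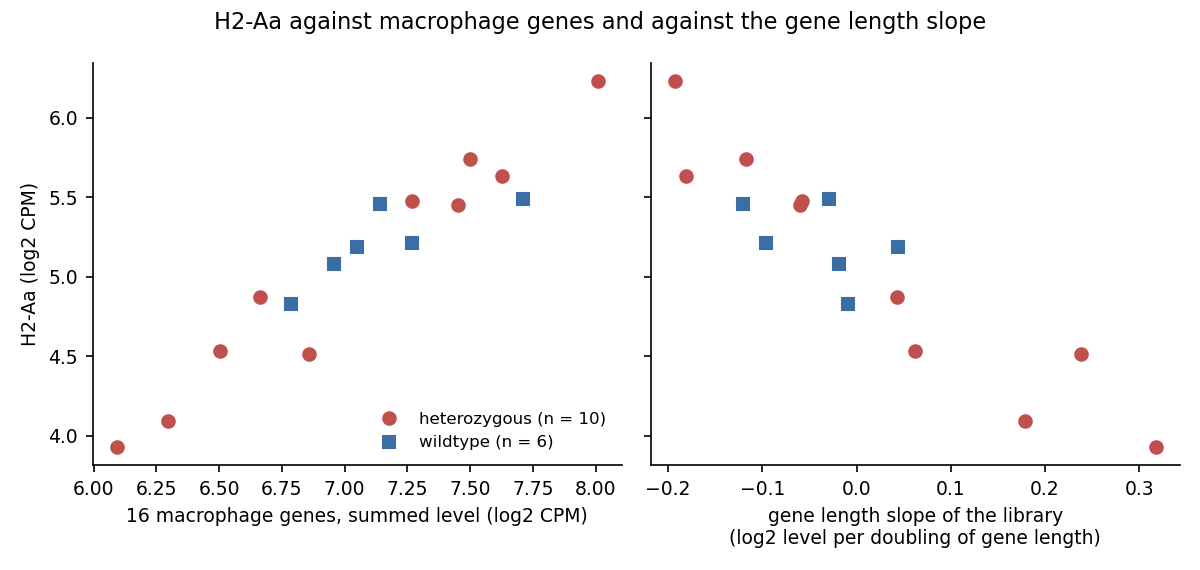
H2-Aa (log2 CPM) against the summed level of 16 macrophage genes (left, log2 CPM) and against the gene length slope of the library (right, log2 level per doubling of gene length), with circles for the heterozygous and squares for the wildtype label. The points follow a rising line on the left (r = 0.96) and a falling one on the right (r = -0.92).

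The other members were less tied to either measure, in a family of 10 relations for each (permutation p unadjusted, two-sided). For the gene length slope r was -0.72 with H2-Ab1 (p = 0.00153), -0.69 with Ighm (p = 0.00342), -0.62 with H2-Eb1 (p = 0.0103), -0.53 with Igkc (p = 0.0343), -0.51 with Cd79a (p = 0.0460) and -0.35 with Cd74 (p = 0.184). For the macrophage sum r was 0.75 with H2-Ab1 (p = 0.00082), 0.68 with Ighm (p = 0.00361), 0.67 with Jchain (p = 0.00510), 0.65 with H2-Eb1 (p = 0.00643), 0.47 with Cd74 (p = 0.0642), 0.39 with Cd79a (p = 0.139), 0.30 with Ms4a1 (p = 0.254) and 0.27 with Cd79b (p = 0.311). In the 3 libraries with the highest gene length slope H2-Aa stood at 15.2 to 22.8 CPM, below all other 13 (23.1 to 74.9 CPM). Ms4a1 stood at 0.0468 to 0.0910 CPM in these 3 (mean 0.0733) and at 0 to 0.788 CPM in the other 13 (mean 0.364), of which heterozygous replicate 1, with no count, was the one library below them. Cd74 (28.8 to 40.3 CPM) lay within the range of the others (27.0 to 80.3 CPM).

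In the fit on Ighm, 2792 of 14330 genes passed (19.5%), and 5 of the 7 other tested members were among them, all higher where Ighm was higher. Igkc had the 9th smallest p of all genes (slope 1.54, standard error 0.25, edgeR adjusted p = 0.00665). The slopes were 0.73 for Jchain (adjusted p = 0.0351), 0.70 for H2-Aa (0.0191), 0.64 for H2-Ab1 (0.0135) and 0.60 for H2-Eb1 (0.0190), whereas Cd74 (0.37, adjusted p = 0.0538) and Cd79a (0.21, adjusted p = 0.743) did not pass. Ighg2c (slope 1.10, adjusted p = 0.00725) and Xbp1, a factor of secretory cells (0.29, adjusted p = 0.0234), were called among 5 tested plasma cell and isotype genes, and Ralgps2 was called lower (-0.64, adjusted p = 0.0428) among 6 other B cell markers, of which none was called higher. Of the class II partners H2-DMa (0.51) and H2-DMb1 (0.53) were called higher and Creb1, which binds cAMP response elements, lower (-0.43). Genes of other cell types were called too, with 5 of 14 macrophage genes higher (median 0.53) and 4 of 10 endothelial genes lower (median -0.44). Cd3e (0.69), 2 of 9 adipocyte genes and 2 of 12 muscle fibre genes were called higher. Their part in the Ighm level was not tested. No gene was called without heterozygous replicate 10, nor with the gene length slope, or with label, cage and body weight, in the fit. The count was 776, 492 and 552 without heterozygous replicates 5, 7 and 9. Over the 16 single omissions the slopes moved less than the count. They ran from 1.05 to 1.71 for Igkc, 0.65 to 0.89 for Jchain, 0.58 to 0.83 for H2-Aa, 0.53 to 0.75 for H2-Ab1 and 0.46 to 0.70 for H2-Eb1.

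The blood-borne genes moved in part with the members as well. Of 7 tested red cell and neutrophil genes, 6 were called higher in the fit on H2-Aa (51.7% of all genes called) and 5 in the fit on Ighm (19.5% called), and neither fit called any gene once the gene length slope was added. They were led by the haemoglobin genes Hbb-bs (0.84) and Hbb-bt (0.86) respectively. Their summed level was 233 to 758 CPM by library under the heterozygous label and 401 to 552 CPM under the wildtype label, with Ly6g at 0 in all 16, and their part in the immunoglobulin and class II levels was not tested. The 10 markers of lymphoid stroma and lymphoid chemokines summed to 74.3 to 163 CPM under the heterozygous label and to 82.9 to 90.9 CPM under the wildtype label, with 5 of them counted in every library. Only 3 of the 10 passed the filter on low counts, namely Cxcl12, Tnfsf13b and Tnfsf13, so the sum says little about the others. Of the 10 markers Cxcl13, a chemokine that attracts B cells, had 60 counts with at least 1 in each library, and Ccl21a, a chemokine of lymph node stroma, had 3 counts over all libraries. Their part in the B cell levels was not tested.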

How the data were processed

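Poly(A) RNA from skeletal muscle of 16 mice was sequenced as 52-bp read pairs. The deposited values are raw fragment counts per gene, which the authors obtained by alignment to GRCm38 with STAR 2.7.2b and counting with featureCounts against GENCODE M24 (version 1.6.4 per the labels), and the labels name a Tecan kit where the methods name another. The members and gene lists were chosen with earlier results of these data known. Genes were kept by edgeR's filterByExpr (minimum count 10), scaled by TMM and fitted with edgeR 4.0.16 (glmQLFit, robust) on cage, body weight and label, or on the log2 CPM (prior count 2) of 1 gene, with Benjamini-Hochberg adjustment over all tested genes at 0.05. The p-values measure the spread between these mice. Beside the 10 members, the text names genes among the 3 of smallest p in each list and, for the slopes on Cd79a and Cd74, the 10 positive and 3 negative genes of smallest p; others were named after their values were seen. Correlations used 100000 permutations (scipy 1.17.1). Alternatives were DESeq2 1.42.0, limma-voom (limma 3.58.1), other scalings, filters and covariates, and leaving out each mouse. The gene length slope of a library is the slope of its log2 level, relative to the mean of all libraries, on log2 gene length. The edgeR script was tested on simulated counts, where 85% of 200 genes changed by 1.5 on the log2 scale were recovered in the label comparison (14167 genes), 74% for cage (14144 genes), 68.5% for body weight (14158 genes) and 86.5% for the slope on Cd74 (14128 genes). No 2 libraries agreed within sampling noise. Totals of 15273472 to 59682677 counts limit genes such as Ms4a1, where 0 counts still allow up to 0.270 CPM.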

Additional observations from a re-analysis of the deposited data

Results flagged for a closer look

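Of 22 groups of libraries examined for a sample far from the others, 1 was marked, where chance marks about 1 in 20. The variable segment counts of heterozygous replicate 1 (60, against 1 to 30 in the other 9 libraries with that label) lay above the next library by 0.508475 of the range of the group, past the critical value of 0.466 for 10 samples. Most of these counts lay on Igkv10-96, and the library also held 105 of the 109 Ighg3 counts.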

How the results depend on the processing

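Counts of called genes depended on the settings, and no call on a member held under all of them. The label comparison called 0 genes, against 6 with DESeq2, 8 with no filter, 2 with the gene length slope added and 1 without heterozygous replicates 5, 6 and 7. The cage comparison called 4, against 78 with DESeq2 (Cd79a adjusted p = 0.0160), 1 with limma-voom, 23 with no filter, 1 with at least 10 counts in every mouse, 0 with library size only, 8 with the gene length slope and 2 without the 3 libraries. The slope on Cd79a called 10, against 6 with library size only, 27 with no filter, 0 without the 3 libraries and 0 with label, cage and body weight. The slope on Cd74 called 3, against 0 with library size only, 81 with no filter, 1918 with the gene length slope, 0 without the 3 libraries and 0 with label, cage and body weight. The slope on H2-Aa called 7404, against 0 with the gene length slope, 2590 without the 3 libraries and 5234 with label, cage and body weight, and that on Ighm 2792, against 0, 406 and, with label, cage and body weight, 0. Leaving out 1 mouse gave 0 to 3 genes for the label, 0 to 869 for cage and 0 to 3158 for body weight (the highest both without heterozygous replicate 3), and 0 to 670, 0 to 277, 5871 to 7513 and 0 to 3877 for the slopes on Cd79a, Cd74, H2-Aa and Ighm. The causes were not tested.

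Replicate numbers are shared between labels, but same-numbered libraries did not deviate together in a way that pairs them (6 pairs, mean r 0.0779, lowest 0.0328). With a replicate block in place of cage, 2 genes were called for the label and 1 for body weight, and the Cd74 slope per 10 g became 0.32.

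Directions turned for several values, some near 0 and others not. Before, Cd79a stood at 0.83 and H2-Ab1 at 0.39 per 10 g, Cd79a at 0.77 on H2-Aa and 0.21 on Ighm, and Jchain at 0.46 on Cd74. Per 10 g, Cd74 was 0.22 and Cd79a -0.015 with weight alone, Cd74 was 0.034 with library size only, H2-Ab1 was -0.044 and H2-Eb1 -0.29 with the gene length slope, and H2-Eb1 was -0.23 without the 3 libraries. On Cd79a, Ighm was -0.015 with library size only, Ighm -0.25, Jchain -0.077, H2-Aa -0.025 and H2-Ab1 -0.21 with the gene length slope, Ighm -0.073 and H2-Ab1 -0.10 without the 3 libraries, and Cd74 0.094 and H2-Eb1 0.29 with label, cage and body weight. Cd79a became -0.21 on H2-Aa and -0.88 on Ighm with the gene length slope, -0.026 on Ighm without the 3 libraries, and 0.31 on Cd74 with label, cage and body weight, where Jchain became -0.47. The correlation of Cd74 with Ighm became -0.051 without 2 libraries. Over single omissions the value per 10 g ran from -0.26 to 0.080 for Cd74 and from -0.22 to 0.35 for H2-Eb1, and the slope on Cd79a from -0.035 to 0.11 for Ighm, -0.55 to 0.049 for Igkc, -0.045 to 0.13 for H2-Ab1 and -0.077 to 0.078 for H2-Eb1. Cd79a fell below the filter in 2 of the 16 omissions. Depth limits Cd79a, Cd79b, Ms4a1 and Jchain, where single libraries hold as few as 0 to 3 counts.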
